A study of Mus musculus with 6 samples.

Results

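The 10 genes described here encode amino acid transporters, which carry amino acids into, out of or within the cell, or, in the case of *Slc3a2*, a chain that such transporters need. They were chosen by name, with earlier results of these data known: *Slc3a2*, *Slc7a5*, *Slc7a6*, *Slc7a8*, *Slc43a1*, *Slc1a4*, *Slc1a5*, *Slc38a1*, *Slc38a2* and *Slc38a9*. Each was among the 16381 genes with a value, and each was expressed highly enough to be tested. The cells were group 2 innate lymphoid cells (ILC2s), tissue-resident lymphocytes without antigen receptors that release type 2 cytokines in allergic lung inflammation. Wild-type BALB/c mice, stated to be female and 6 to 8 weeks old, received 0.5 µg of IL-33, the alarmin that activates these cells, into the nose on each of 3 days. Lung ILC2s were then sorted as live CD45+, lineage-negative, ST2+ and CD127+ cells, which are called activated ILC2s (aILC2s). They were kept in culture for 24 h with 250 µM melatonin or with DMSO, the solvent, as vehicle, and their RNA was sequenced in bulk, with 3 samples per group. IL-33 challenge, sorting and culture were common to both groups. The sources used here do not say whether the 3 samples of a group came from separate mice, so p-values measure the spread between these samples, which may be technical.

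Amino acids cross membranes mainly through such carriers, and lymphocytes that become active raise their uptake to make protein, nucleotides and glutathione. CD98 is the heavy chain encoded by *Slc3a2*. It has no transport activity of its own and brings light chains of the Slc7 family to the cell surface, where they exchange one amino acid for another. Glutamine and small neutral amino acids enter with sodium through the Slc1 and Slc38 families, and leucine, entering by exchange, activates the growth kinase complex mTORC1, which works at the lysosome.

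Total estimated counts ranged from 17056267 to 20511700 per sample, and a count of 3 corresponded to 2.80 to 3.28 normalized counts, the unit of all levels below. Transcripts of 4 genes on the Y chromosome (*Ddx3y*, *Eif2s3y*, *Kdm5d* and *Uty*) were present in 4 libraries, namely the vehicle libraries and melatonin replicate 1, and were at 0 in melatonin replicates 2 and 3, although the mice were stated to be female. Melatonin replicate 1 was also the highest or the lowest of its group for 10 of the 10 transporters, against 74.9% of the 14419 genes tested. Results of the 10 transporters are therefore also given with and without these libraries where a call differs or the size of a change differs by over 1.5 times. The library numbers in the labels form one run for melatonin and another for vehicle, so any batch that follows them cannot be told apart from treatment. All 12 markers of ILC2s were in the table. Of these, 2 rose and 7 fell with melatonin (limma on log2 values, Benjamini-Hochberg adjusted p under 0.05), beside 24.5% and 24.7% of all genes tested. *Il1rl1*, which encodes the ST2 receptor, and *Rora* rose. *Il7r*, *Klrg1*, *Il2ra*, *Thy1*, *Il5*, *Il13* and *Areg* fell. *Il7r*, which encodes the sorting marker CD127, had a log2 fold change of -1.06, and *Klrg1* had -2.16. *Gata3*, which encodes the lineage factor, did not pass the test. Both *Gata3* and *Il1rl1* were present in every library.

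Markers of other cells moved too. The summed level of 4 NK cell markers was 5802 to 7136 in vehicle and 56.0 to 194 in melatonin, with 2 of 4 lower and *Klrb1c* at 0 in every melatonin library. *Gzma* alone made up most of that sum, with 5677 to 7021 normalized counts in vehicle and 56.0 to 190.0 in melatonin. The sorting gate removed cells with surface CD3, CD4, CD5, B220, CD335, CD11b and CD11c, among others. For myeloid cells, 6 of 7 markers were in the table and 4 were lower (1441 to 1629 in vehicle, 362 to 844 in melatonin). The 3 T cell markers in the table, of 7 listed, were all lower (1203 to 1336 against 458 to 868), while *Cd4*, *Cd5*, *Cd8a* and *Cd8b1* were not in the table. Of 4 B cell markers, 2 were in the table and 1 was lower (289 to 322 against 131 to 162). Only *Pecam1* represented the 5 endothelial or stromal markers, and it was lower (1001 to 1066 against 310 to 416). Of 5 epithelial markers, 4 were in the table, with 1 higher and 2 lower (889 to 2125 against 1039 to 1237), and the 2 of 4 mast cell or basophil markers in the table summed to at most 36.2. The part of these cells in the results on transporters was not tested. In bulk RNA, fewer cells of a type and less RNA per cell cannot be told apart.

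Of the 10 transporters, 5 rose with melatonin, 1 fell and 4 did not pass the test. *Slc3a2*, *Slc7a8*, *Slc1a4*, *Slc1a5* and *Slc38a2* rose by 1.32-fold to 1.84-fold, and *Slc38a1* fell to 0.616 of its vehicle mean. Over all 14419 genes tested, 24.5% rose and 24.7% fell (limma, adjusted p under 0.05), so that 49.2% passed in either direction. Without overlap between the groups, 6 of the 10 transporters were higher and 2 were lower, where 30.0% of all genes were higher and 30.3% were lower, 60.4% together. The median log2 fold change of the 10 transporters was 0.40, beside a median of -0.00458 over all genes tested. Since the 10 were chosen with earlier results known, these contrasts with all genes are a description only. The median size of change in either direction was 0.445 for the transporters and 0.446 for all genes.

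**Figure D1:**
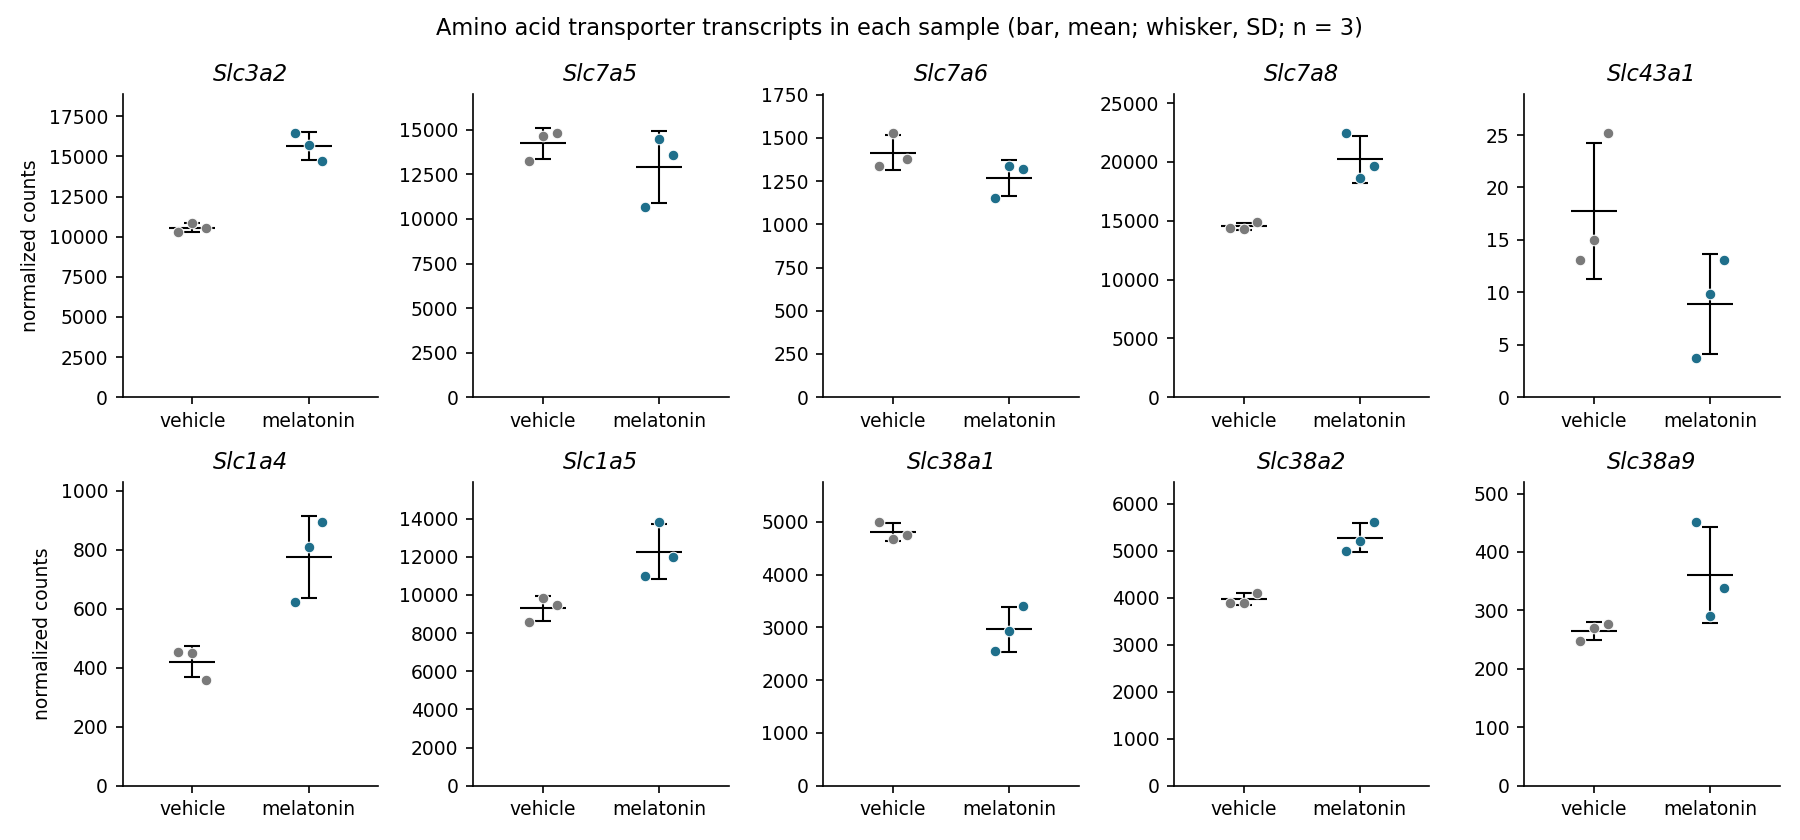
Normalized counts of the 10 amino acid transporters in each sample, with 1 panel per gene, an axis from 0 and vehicle (grey) beside melatonin (blue). Points are samples, horizontal bars are group means and whiskers are SD (n = 3). The groups lie apart for 8 genes and overlap for *Slc7a5* and *Slc43a1*.

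The heavy chain transcript rose. *Slc3a2* (ENSMUSG00000010095, chr19:8684245-8701108, minus strand, GRCm39) had 10285, 10853 and 10567 normalized counts in vehicle replicates 1, 2 and 3. In melatonin replicates 1, 2 and 3 it had 16455, 15725 and 14741. All melatonin samples were above all vehicle samples, and the spread within each group was small. The mean went from 10568 ± 284 to 15641 ± 860 (SD, n = 3), a 1.48-fold rise, with a log2 fold change of 0.56 (SE 0.08, 95% interval 0.39 to 0.74, limma adjusted p = 0.000518). A non-coding gene, *Snhg1*, shares 790 bases with *Slc3a2* on the opposite strand, and the library kit does not mark strand, so their reads cannot be told apart there. *Snhg1* reached at most 229.6 normalized counts and fell with melatonin, with a log2 fold change of -0.78 (limma adjusted p = 0.0147).

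The light chain best known as its partner did not pass the test. *Slc7a5* encodes LAT1, the exchanger of leucine, tryptophan and other large neutral amino acids (ENSMUSG00000040010, chr8:122607884-122634433, minus strand). Vehicle samples held 13245, 14664 and 14818 normalized counts, and melatonin samples 10657, 14507 and 13581. The lowest melatonin sample was replicate 1, and the other two lay within the vehicle range. The log2 fold change was -0.15 (SE 0.12, 95% interval -0.42 to 0.12, limma adjusted p = 0.311). Without melatonin replicate 1 it was -0.02 (adjusted p = 0.834, limma), and without melatonin replicate 2 it was -0.24 (adjusted p = 0.140, limma). In the comparison limited to libraries with Y-linked transcripts, where melatonin replicate 1 is the only melatonin library, it was -0.42.

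*Slc7a8*, which encodes LAT2, an exchanger that accepts small as well as large neutral amino acids, rose (ENSMUSG00000022180, chr14:54959630-55019649, minus strand). It stood at 14425, 14332 and 14893 normalized counts in vehicle and at 22451, 18599 and 19631 in melatonin. Vehicle samples were close together, and melatonin replicate 1 was the highest of a wider melatonin group that lay wholly above them. The mean rose 1.39-fold, from 14550 ± 300.3 to 20227 ± 1994 (SD, n = 3), and the log2 fold change was 0.47 (SE 0.09, 95% interval 0.27 to 0.67, limma adjusted p = 0.00268). Without melatonin replicate 1 it was 0.39 (limma adjusted p = 0.000793).

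*Slc7a6* encodes y+LAT2, which exchanges arginine and other cationic amino acids for neutral ones (ENSMUSG00000031904, chr8:106895139-106925346, plus strand). Its values were 1339, 1528 and 1380 normalized counts in vehicle and 1150, 1337 and 1319 in melatonin. The groups did not overlap, but melatonin replicate 2 and vehicle replicate 1 nearly met. The log2 fold change was -0.16 (SE 0.09, 95% interval -0.37 to 0.06, limma adjusted p = 0.190), which did not pass the threshold. It was -0.09 without melatonin replicate 1 (limma adjusted p = 0.384) and -0.10 without vehicle replicate 2 (limma adjusted p = 0.482). In the libraries with Y-linked transcripts, where melatonin replicate 1 is the only melatonin library, it was -0.30.

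*Slc43a1* encodes LAT3, which carries large neutral amino acids without a heavy chain (ENSMUSG00000027075, chr2:84669194-84698315, plus strand). It was the scarcest of the 10, with 13.1, 15.0 and 25.2 normalized counts in vehicle and 3.74, 9.83 and 13.1 in melatonin. Melatonin replicate 1 was near the level of 3 counts, and the groups touched at 13.1. The log2 fold change of -1.01 had a wide error (SE 0.51, 95% interval -2.16 to 0.14, limma adjusted p = 0.129), and did not pass the threshold. Without melatonin replicate 1 it was -0.55 (limma adjusted p = 0.320). Among libraries with Y-linked transcripts, where melatonin replicate 1 is the only melatonin library, it was -1.93.

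Both ASCT carriers rose. *Slc1a4* encodes ASCT1, a sodium-dependent exchanger of alanine, serine and cysteine (ENSMUSG00000020142, chr11:20252180-20282774, minus strand), and had the largest log2 fold change among the transporters that passed the test. Vehicle samples had 453.6, 449.7 and 358.8 normalized counts and melatonin samples 621.9, 810.7 and 895.7. Every melatonin sample was above the highest vehicle sample, with melatonin replicate 1 the nearest to it. The mean went from 421 ± 53.6 to 776 ± 140 (SD, n = 3), 1.84-fold, and the log2 fold change was 0.87 (SE 0.16, 95% interval 0.52 to 1.23, limma adjusted p = 0.00205). In the libraries with Y-linked transcripts, where melatonin replicate 1 is the only melatonin library, it was 0.57, which is more than 1.5 times smaller.

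*Slc1a5* encodes ASCT2, a main entry for glutamine in dividing lymphocytes (ENSMUSG00000001918, chr7:16515265-16532731, plus strand). It had 8580, 9844 and 9441 normalized counts in vehicle and 10977, 13838 and 11987 in melatonin. The groups were apart, with melatonin replicate 1 the lowest of its group. The mean rose 1.32-fold, from 9289 ± 646 to 12267 ± 1451 (SD, n = 3), with a log2 fold change of 0.40 (SE 0.10, 95% interval 0.17 to 0.63, limma adjusted p = 0.0112). The call was lost without vehicle replicate 1, at 0.34 (limma adjusted p = 0.0527). In the libraries with Y-linked transcripts, where melatonin replicate 1 is the only melatonin library, the log2 fold change was 0.24. Without melatonin replicate 1 it was 0.47 (limma adjusted p = 0.00229).

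The sodium-coupled neutral amino acid carriers SNAT1 and SNAT2 went in opposite directions. *Slc38a1*, encoding SNAT1 (ENSMUSG00000023169, chr15:96469298-96541851, minus strand), was at 5005, 4674 and 4742 normalized counts in vehicle and at 2544, 2936 and 3406 in melatonin. All vehicle samples were above all melatonin samples. Its mean fell from 4807 ± 175 to 2962 ± 432 (SD, n = 3), and the log2 fold change was -0.71 (SE 0.11, 95% interval -0.95 to -0.47, limma adjusted p = 0.000897). *Slc38a2*, encoding SNAT2, which cells are known to raise when amino acids run short, lies beside it (ENSMUSG00000022462, chr15:96585266-96597894, minus strand). It was at 3898, 3885 and 4111 normalized counts in vehicle and at 5006, 5209 and 5621 in melatonin. The groups lay apart, here with melatonin higher. The mean rose 1.33-fold, from 3965 ± 127 to 5279 ± 314 (SD, n = 3), with a log2 fold change of 0.41 (SE 0.08, 95% interval 0.24 to 0.58, limma adjusted p = 0.00237).

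*Slc38a9* encodes a transporter of the lysosomal membrane that senses arginine for mTORC1 (ENSMUSG00000047789, chr13:112797159-112875283, plus strand). It had 248.3, 269.8 and 277.0 normalized counts in vehicle and 452.0, 290.6 and 338.8 in melatonin. All melatonin samples were above the vehicle samples, but replicate 2 by little and replicate 1 by much. The log2 fold change was 0.42 (SE 0.17, 95% interval 0.04 to 0.80, limma adjusted p = 0.0633), which missed the threshold. It passed without melatonin replicate 2, at 0.56 (limma adjusted p = 0.0266), and was 0.24 without melatonin replicate 1 (limma adjusted p = 0.134). In the libraries with Y-linked transcripts, where melatonin replicate 1 is the only melatonin library, it was 0.77.

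**Figure D2:**
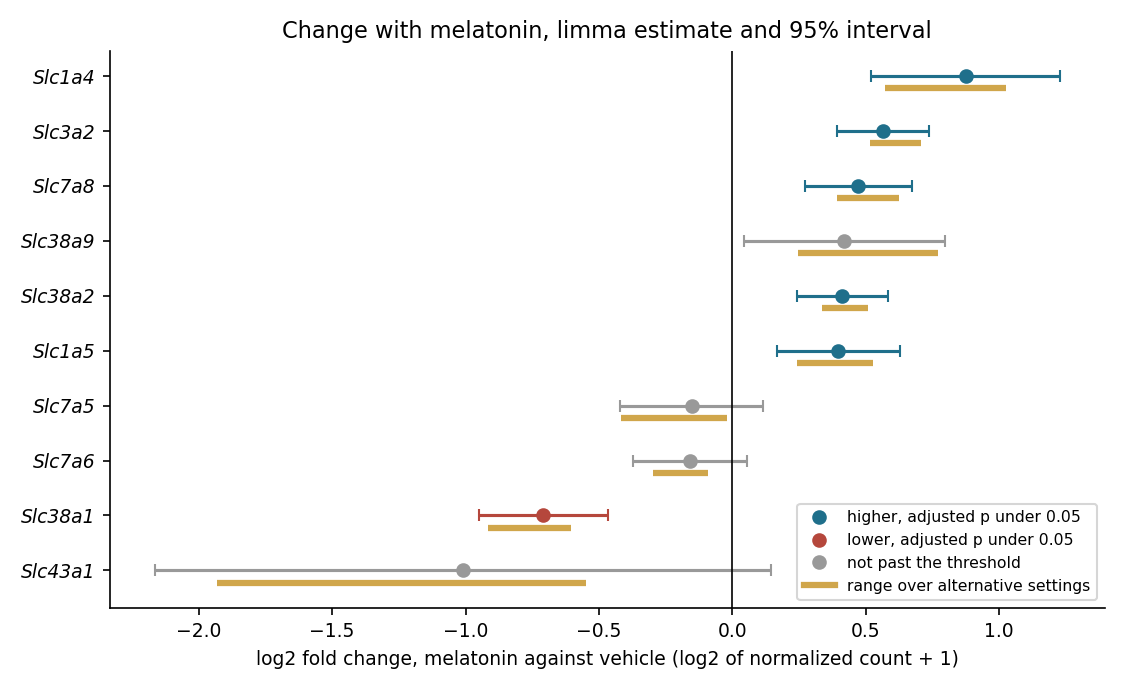
Log2 fold change of each transporter, melatonin against vehicle, on the scale of log2(normalized count + 1). Points are limma estimates with 95% intervals, coloured by call, and the yellow bar under each gives the range over the alternative settings. The intervals of 5 transporters lie above 0 with a call, that of *Slc38a1* lies below 0, and none of the 10 yellow bars crosses 0.

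Between genes, levels were compared as normalized counts per kilobase of the Ensembl canonical transcript. In vehicle, *Slc3a2* was the highest at 4136 ± 111 per kilobase, followed by *Slc7a5* at 4050 ± 247, *Slc7a8* at 3507 ± 72.4 and *Slc1a5* at 3359 ± 233 (SD, n = 3). The ranges of *Slc3a2* and *Slc7a5* overlapped, as did those of *Slc7a8* and *Slc1a5*, while *Slc7a5* and *Slc7a8* lay apart. By mean level per kilobase over all 6 samples, both groups together, these 4 transcripts ranked between 262 and 374 among 14391 tested genes with a length, and thus belonged to the abundant transcripts of these cells. *Slc38a2* at 847 ± 27.1, *Slc38a1* at 676 ± 24.6, *Slc7a6* at 377 ± 26.5 and *Slc1a4* at 106 ± 13.5 per kilobase came next, each apart from its neighbours (SD, n = 3). *Slc38a9* at 29.7 ± 1.67 and *Slc43a1* at 5.75 ± 2.11 per kilobase closed the order (SD, n = 3).

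With melatonin the order at the top differed. *Slc3a2* stood alone at 6122 ± 337 per kilobase, then came *Slc7a8* at 4875 ± 481, *Slc1a5* at 4437 ± 525 and *Slc7a5* at 3672 ± 571 (SD, n = 3). By level per kilobase, *Slc7a5* thus went from the second place to the fourth. The ranges of *Slc1a5* overlapped, however, with those of *Slc7a8* and of *Slc7a5*. From the fifth place down the order was that of vehicle, with *Slc38a2* at 1127 ± 67.0, *Slc38a1* at 416 ± 60.7, *Slc7a6* at 338 ± 27.4 and *Slc1a4* at 195 ± 35.1 per kilobase (SD, n = 3).

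The heavy chain has several possible light chains, and their transcripts were set side by side. Of the sum of the light chain levels per kilobase (*Slc7a5*, *Slc7a6*, *Slc7a7*, *Slc7a8* and *Slc7a11*), *Slc7a5* took 49.4%, 51.7% and 51.4% in vehicle and 34.6%, 45.9% and 43.1% in melatonin. *Slc7a8* took 45.6%, 42.8% and 43.8% in vehicle and 61.7%, 49.9% and 52.8% in melatonin. Per kilobase, *Slc7a5* was thus the larger in each vehicle sample and *Slc7a8* in each melatonin sample. In vehicle replicates 1 and 3 this order rests on the division by transcript length. Undivided, *Slc7a8* was the higher there, with 14425 against 13245 and 14893 against 14818 normalized counts. *Slc7a6* took 4.74 ± 0.288% and 3.79 ± 0.259%, and *Slc7a11* and *Slc7a7* each took less than 1% (SD, n = 3). The summed light chain level per kilobase was 1.89, 1.90 and 1.98 times that of *Slc3a2* in vehicle and 1.36, 1.46 and 1.55 times in melatonin, so the sum was lower relative to the heavy chain in each melatonin sample. These shares describe RNA and were not tested.

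**Figure D3:**
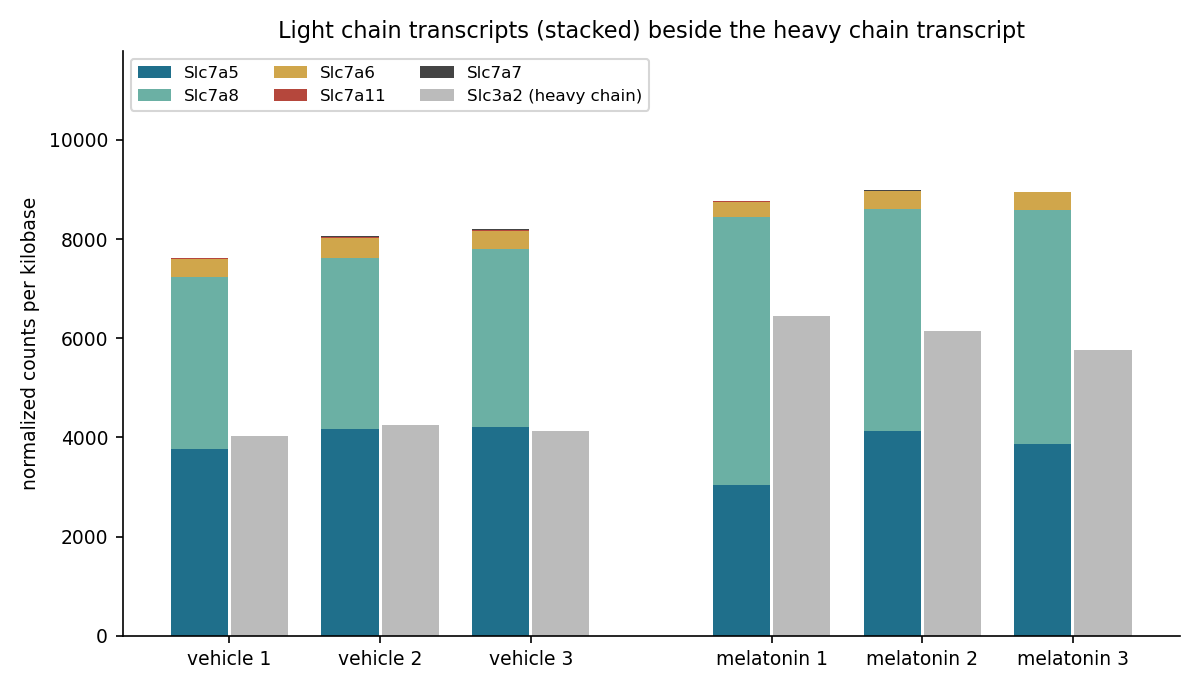
Stacked bars give the level of each light chain transcript per sample in normalized counts per kilobase, and the grey bar beside each gives the heavy chain *Slc3a2*. The stack is between 7624 and 8201 in vehicle and between 8768 and 8984 in melatonin. *Slc3a2* is between 4025 and 4248 in vehicle and between 5770 and 6440 in melatonin.

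Ratios within a sample compare relatives without regard to the scale of the library. Of 6 pairs, 5 had ratios that did not overlap between the groups, each with p = 0.1 in a two-sided exact permutation test, the smallest p that 3 samples against 3 allow, and 0.12 when adjusted over the 6 pairs. No pair could therefore pass a threshold of 0.05. *Slc38a2* over *Slc38a1* differed the most: the log2 ratio of levels per kilobase was 0.24, 0.34 and 0.40 in vehicle and 1.58, 1.43 and 1.33 in melatonin. SNAT2 transcripts were thus 1.25 times those of SNAT1 in vehicle and 2.72 times in melatonin, as geometric means, and the difference in the log2 ratio was 1.12. *Slc7a5* over *Slc3a2* had a mean log2 ratio of -0.03 ± 0.06 in vehicle and -0.75 ± 0.29 in melatonin (SD, n = 3), a difference of -0.72. Against *Slc7a8*, the log2 ratio of *Slc7a5* went from 0.21 ± 0.08 to -0.42 ± 0.37 (SD, n = 3), a difference of -0.62, or of -0.41 without melatonin replicate 1. ASCT2 transcripts were more abundant per kilobase than those of ASCT1 in every sample, and the ratio of *Slc1a5* to *Slc1a4* was 32.0 in vehicle and 23.0 in melatonin as geometric means, a difference of -0.48 on the log2 scale. *Slc7a11* over *Slc7a5* had a log2 ratio of -7.82 ± 0.04 in vehicle and -8.23 ± 0.24 in melatonin (SD, n = 3). *Slc7a5* over *Slc7a6* had overlapping ratios, 3.43 ± 0.08 and 3.43 ± 0.12 on the log2 scale (SD, n = 3, exact permutation p = 0.9).

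**Figure D4:**
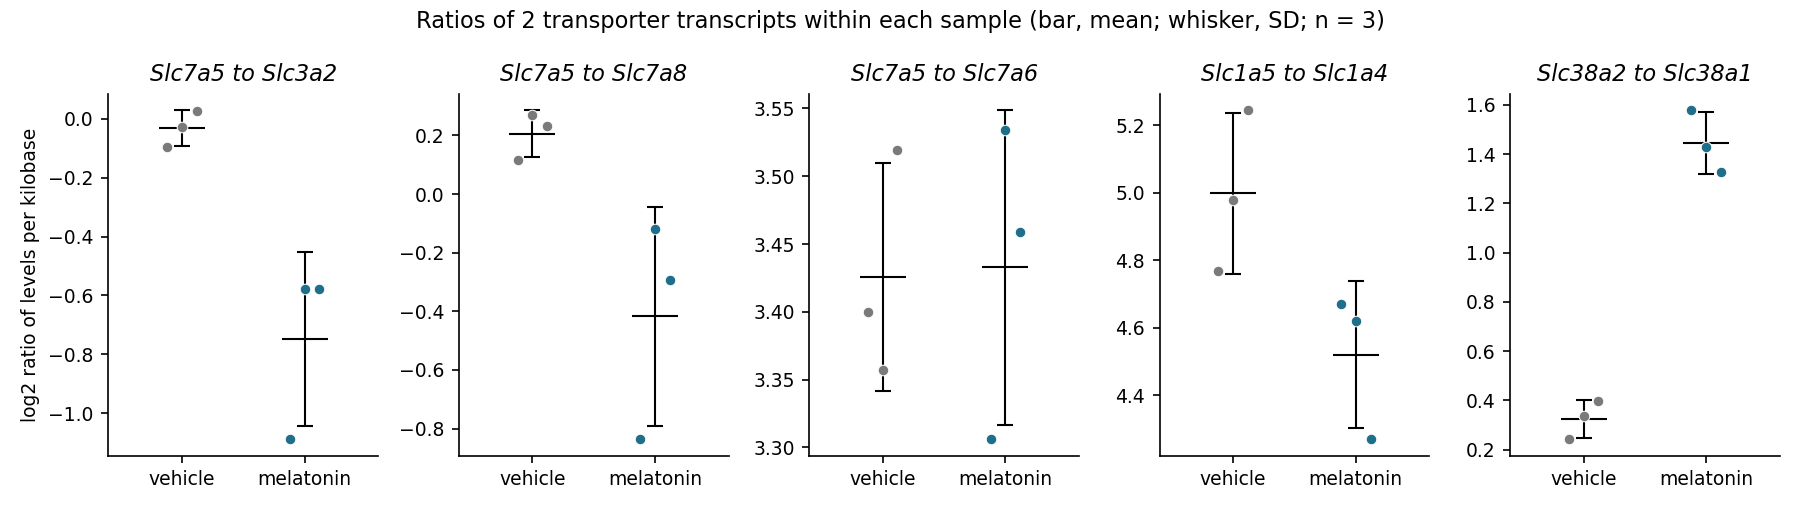
Log2 ratio of levels per kilobase for 5 pairs of transporter transcripts in each sample, with bars for the mean and whiskers for SD (n = 3), and axes that do not start at 0. The groups are apart for *Slc7a5* to *Slc3a2*, *Slc7a5* to *Slc7a8*, *Slc1a5* to *Slc1a4* and *Slc38a2* to *Slc38a1*, and overlap for *Slc7a5* to *Slc7a6*.

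To place the 10 transporters within the wider family, 54 other amino acid transporter genes were listed, of which 40 were in the table and 37 were tested. Of these, 5 rose, 13 fell and 19 did not pass, with a median log2 fold change of -0.19, beside 24.5% higher and 24.7% lower among all genes tested. At the plasma membrane, 1 of 18 tested rose and 8 fell, with a median of -0.74, although only 8 of the 18 had a mean of at least 100 normalized counts. Of 9 lysosomal carriers tested, 3 rose and 2 fell (median 0.17), and of 10 mitochondrial carriers, 1 rose and 3 fell (median -0.06). With so few genes in each location, these counts are given as a description beside the same shares over all genes, 24.5% and 24.7%.

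**Figure D5:**
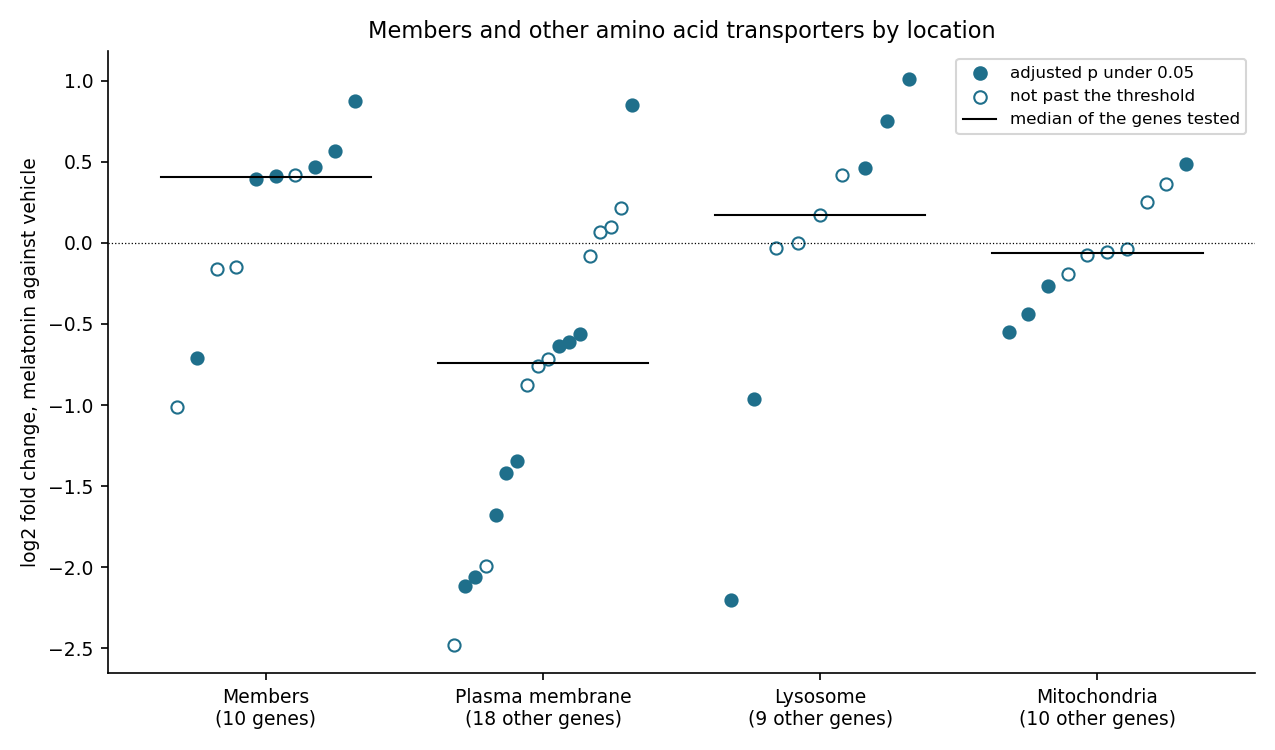
Log2 fold change, melatonin against vehicle, of the 10 transporters (left column) and of the other amino acid transporters tested, by location and ordered by value within a column. Filled circles passed an adjusted p of 0.05 in limma, and lines mark medians of 0.40, -0.74, 0.17 and -0.06 from left to right.

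Among the abundant carriers of the lysosome, *Ctns*, which exports cystine, had a log2 fold change of 1.01 (SE 0.19, limma adjusted p = 0.00292). *Slc66a1*, which exports arginine and lysine, had 0.75 (SE 0.10, limma adjusted p = 0.000612), and *Slc15a4*, which exports histidine and peptides, had 0.46 (SE 0.09, limma adjusted p = 0.00353). *Slc15a3*, a relative of *Slc15a4*, fell by 2.20 on the log2 scale (SE 0.18, limma adjusted p = 6.3e-05), from 327 ± 63.4 to 69.9 ± 7.51 normalized counts (SD, n = 3). *Slc36a1*, a proton-coupled carrier of small amino acids, fell by 0.96 (SE 0.18, limma adjusted p = 0.00237). Lysosomal carriers thus moved in both directions. In mitochondria, *Slc25a44*, which carries branched-chain amino acids, rose by 0.48 on the log2 scale (SE 0.09, limma adjusted p = 0.00322). The 3 mitochondrial carriers that fell, named after their values were seen, were the serine carrier *Sfxn1*, by 0.55, the aspartate and glutamate carrier *Slc25a12*, by 0.44, and the glycine carrier *Slc25a38*, by 0.27 (limma adjusted p = 0.00163, 0.00211 and 0.0433). Calls of these 3 genes were not checked one by one under the alternative settings.

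At the cell surface, the glycine carrier *Slc6a9* rose by 0.85 on the log2 scale (SE 0.23, limma adjusted p = 0.0147), with 0.56 without melatonin replicate 1 (limma adjusted p = 0.00923) and 0.76 without vehicle replicate 2, where the call was lost (limma adjusted p = 0.0585), as it was without the mean-variance trend (limma adjusted p = 0.0510). *Slc7a1*, the main arginine carrier of many cells, fell by 0.61 (SE 0.15, limma adjusted p = 0.0103), and the taurine carrier *Slc6a6* fell by 0.64 (SE 0.11, limma adjusted p = 0.00161). A further cationic amino acid carrier, *Slc7a3*, lies on the X chromosome and fell by 1.35 (SE 0.42, limma adjusted p = 0.0270). Its adjusted p was 0.0650, 0.0682 and 0.0659 (limma) when vehicle replicate 1, 2 or 3 was left out and 0.0858 (limma) without the mean-variance trend, and its log2 fold change was -0.73 without melatonin replicate 1. In the libraries with Y-linked transcripts the log2 fold change was -2.58 for *Slc7a3*, -0.94 for *Slc7a1* and 1.44 for *Slc6a9*. *Slc7a11*, the light chain that imports cystine for glutamate, fell by 0.56 (SE 0.15, limma adjusted p = 0.0125), from 166 ± 7.25 to 112 ± 7.79 normalized counts (SD, n = 3). *Slc7a7*, which encodes y+LAT1, had a log2 fold change of -0.76 that did not pass (SE 0.47, limma adjusted p = 0.210), and -0.28 without melatonin replicate 3 (limma adjusted p = 0.568).

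Transcripts of 5 transcription factors known to act on such transporter genes, and of the feedback gene *Trib3*, were measured in the same fit. *Nfe2l2*, which encodes the antioxidant factor NRF2, rose by 1.21 on the log2 scale and *Hif1a*, the hypoxia factor, rose by 0.78, while *Myc* fell by 0.53 (limma adjusted p = 0.000155, 0.000244 and 0.00800). With melatonin replicate 1 as the only melatonin library, *Myc* fell by 0.84. *Atf4*, the factor of the amino acid response, fell by 0.50 (limma adjusted p = 0.0285), by 0.30 without melatonin replicate 1 (limma adjusted p = 0.0211) and by 0.91 with it as the only melatonin library. It lost the call without vehicle replicate 1, 2 or 3 or melatonin replicate 2 (limma adjusted p = 0.0793, 0.0786, 0.0576 and 0.0571), and with quantile normalization or without the mean-variance trend (limma adjusted p = 0.0825 and 0.0875). The *Atf4* partner gene *Ddit3* rose by 0.35 (limma adjusted p = 0.0182, but 0.0749 and 0.0603 without vehicle replicate 2 or 3, and 0.0541 with quantile normalization). *Trib3*, a feedback inhibitor of ATF4, had 0.02 (limma adjusted p = 0.945), but 0.34 without melatonin replicate 1 (limma adjusted p = 0.0189) and -0.61 with it as the only melatonin library.

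Promoter sequences were read to show which letters known from such factors lie near their start sites. Windows of 300 bases, from 250 before to 50 after the start, were found for 7 of the 10 transporters in a RefSeq table of GRCm38.p6, a build other than that of the gene positions above. Sets of letters were searched on both strands, allowing overlaps: TGATGCAA, the core of the ATF4 response element; CACGTG, the E-box bound by MYC and others; and TGACNNNGC, the core of the antioxidant response element. Of all 32851 windows of this length in the table, 0.895%, 7.15% and 12.4% held them. Promoters of *Slc7a5*, *Slc1a5* and *Slc38a1* were not analysed here. The 4 windows below belong to 4 of the 5 transporters that rose, each shown from 240 bases before to 10 after the start, with matched letters in capitals:
Slc1a4, chr11:20332704-20332953, minus strand: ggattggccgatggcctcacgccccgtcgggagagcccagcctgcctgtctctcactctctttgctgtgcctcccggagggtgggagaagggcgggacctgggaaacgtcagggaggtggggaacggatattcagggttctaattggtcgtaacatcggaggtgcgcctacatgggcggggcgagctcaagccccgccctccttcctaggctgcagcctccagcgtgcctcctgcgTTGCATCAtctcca
Slc38a2, chr15:96699719-96699968, minus strand: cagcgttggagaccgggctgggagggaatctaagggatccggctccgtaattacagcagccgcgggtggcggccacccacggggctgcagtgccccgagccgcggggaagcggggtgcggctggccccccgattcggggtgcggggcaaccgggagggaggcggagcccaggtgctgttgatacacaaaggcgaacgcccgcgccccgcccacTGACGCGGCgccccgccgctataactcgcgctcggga
Slc3a2, chr19:8713888-8714137, minus strand: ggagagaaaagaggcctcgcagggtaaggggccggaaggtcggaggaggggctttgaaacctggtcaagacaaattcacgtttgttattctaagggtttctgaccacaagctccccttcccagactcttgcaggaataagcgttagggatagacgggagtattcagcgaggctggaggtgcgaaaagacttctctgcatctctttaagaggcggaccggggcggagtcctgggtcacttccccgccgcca
Slc7a8, chr14:54781877-54782126, minus strand: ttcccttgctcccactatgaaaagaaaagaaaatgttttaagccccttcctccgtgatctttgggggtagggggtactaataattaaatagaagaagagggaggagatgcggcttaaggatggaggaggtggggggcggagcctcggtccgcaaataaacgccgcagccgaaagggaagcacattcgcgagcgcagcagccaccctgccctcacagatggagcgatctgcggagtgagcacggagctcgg

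In the *Slc1a4* window, the reverse complement of the ATF4 core, TTGCATCA, began 4 bases before the start and ran across it. The *Slc38a2* window held a match to the antioxidant core, TGACGCGGC, 27 bases before the start. Neither the *Slc3a2* nor the *Slc7a8* window held any of the searched letters, which says only that these letters are not in these windows. Among the transporters that did not pass the test, *Slc7a6* had the antioxidant core TGACGTGGC at a single site, which both of its overlapping windows hold, and *Slc43a1* had both an E-box and the antioxidant core. The *Slc38a9* window held none. A match describes the sequence and is not evidence that a factor binds there.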

How the data were processed

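RNA was measured in 6 samples, 3 with melatonin and 3 with vehicle. Per the study's methods, the authors made cDNA with a SMARTer Ultra Low Input kit, sequenced it on a NextSeq system, used Partek Flow for trimming and STAR for alignment to mm39, assigned them to Gencode genes with the Partek E/M algorithm, removed genes with low counts and divided by the median ratio size factors of DESeq2. The amount of RNA used is given differently in the labels and in the methods. The deposited values are therefore a signal (normalized counts). Only 63.4% to 66.0% of values in a sample were whole multiples of the value of 1 read within 0.01, so whole reads were not recovered and no count test was the main result. Estimated totals came from that value of 1 read, and floors of 3 reads cover counting error only.

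Gene names, GRCm39 positions and transcript lengths came from GENCODE M39, which named 16334 of the 16381 genes. Groups were compared with lmFit and eBayes (trend on) of limma 3.58.1, run in R 4.3.3, on log2(normalized count + 1) for the 14419 genes with at least 10 in at least 1 sample, with Benjamini-Hochberg adjustment over all of them, a threshold of 0.05 and treatment as the only term. Fold changes are on that scale and understate changes of scarce genes, and a fold is the ratio of group means. The fit was tested on simulated data. Tables used Python 3.11.15, pandas 2.3.3, numpy 2.4.6 and scipy 1.17.1, figures matplotlib 3.10.9, and ratio tests scipy's exact permutation test. All 10 transporters, the 5 transcription factors and *Trib3* are named. Of the other carriers past the threshold, without overlap and with a mean of at least 100, the 5 that rose and the 5 that fell most are named. *Slc7a7* and *Slc36a1* were always named, and *Sfxn1*, *Slc25a12* and *Slc25a38* were named after their values were seen. The transporters and lists were chosen with earlier results of these data known. Alternatives were pseudocounts of 0.1 and 10, other filters, scalings and limma settings, voom on estimated counts, a replicate block, each sample left out, only libraries with Y-linked transcripts, and a threshold of 0.01.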

Additional observations from a re-analysis of the deposited data

How the results depend on the processing

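Over 19 alternatives (18 for *Slc43a1*, whose mean is under 100 normalized counts), no transporter of the 10 changed direction, and *Slc3a2*, *Slc7a8*, *Slc1a4*, *Slc38a2* and *Slc38a1* kept their calls. With each sample left out in turn, 4 to 6 of the 10 were higher and 1 was lower. In libraries with Y-linked transcripts, melatonin replicate 1 stands alone and is assumed to vary like the vehicle samples. Only sizes of change are therefore given for that setting. Where means of 100 normalized counts or more were required, 8 other carriers were lower instead of 13, since fewer genes were tested, and at an adjusted p under 0.01 it was 6. Leaving out samples gave 4 to 6 other carriers higher and 9 to 12 lower. *Trib3*, at 0.02, changed sign with quantile normalization (-0.0492), upper quartile scaling (-0.0280), and libraries with Y-linked transcripts (-0.61), and ranged from -0.18 to 0.34 with samples left out. The difference in the log2 ratio of *Slc7a5* to *Slc7a6*, 0.00737, ranged from -0.0431 to 0.0708 with samples left out. The causes were not tested. No scaling moved the median of all genes by 0.1 on the log2 scale. *Slc38a9* passed with samples scaled to the same total (limma adjusted p = 0.0471) and with voom (adjusted p = 0.0447), and *Slc1a5* did not at the threshold of 0.01. Over the alternatives apart from libraries with Y-linked transcripts, the limma adjusted p ranged from 0.0266 to 0.163 for *Slc38a9* and from 0.00168 to 0.0527 for *Slc1a5*. Replicate numbers are shared between the groups. Correlations of deviations from the group means were -0.106, 0.136 and -0.194 for same-numbered samples, and -0.194 to 0.310 for the others. With deviations from means of 3 samples, these values cannot show whether same-numbered samples were paired. With a replicate block, 5 of the 10 transporters were higher and 1 was lower, and of the other carriers 6 were higher and 12 lower.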
